A study of Mus musculus with 16 samples.

Results

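The TNF superfamily ligands of T cells were followed through activation of naive CD4+ T cells with and without the transcription factor Dec1. They are 10 genes, Tnf, Lta, Ltb, Cd40lg, Fasl, Tnfsf8, Tnfsf10, Tnfsf11, Tnfsf14 and Cd70, named by family, out of 16427 genes tested. These genes were chosen with earlier results of these data known, so their counts beside all genes are descriptions. Each was read from the 1 probe that carries its symbol alone in the probe table, and all 10 passed the filter on dim probes. B6 mice gave the cells, from spleen and lymph nodes, and a sorter took those with CD4, high CD62L and no CD25, which were then stimulated with latex beads for 24 h. Beads carried anti-CD3, a stimulus of the T cell receptor, with or without anti-CD28, a stimulus of the costimulatory receptor CD28. The groups, with 4 arrays each, were DEC1 knock-out cells on anti-CD3 plus anti-CD28 beads (KO_CD3CD28), DEC1 knock-out cells on anti-CD3 beads (KO_CD3), wild-type cells on anti-CD3 plus anti-CD28 beads (WT_CD3CD28) and wild-type cells on anti-CD3 beads (WT_CD3). All groups had a T cell receptor stimulus, and no unstimulated cells were analysed here. Neither the age of the mice nor the design of the knockout allele is given in the sources used here. The replicates are not said to come from separate animals, so p-values measure only the spread among these arrays, part of which may be technical.

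The ligands of this family are mostly membrane proteins of T cells that act as trimers on receptors of neighbouring cells, and some are also released in soluble form. TNF and lymphotoxin alpha, the product of Lta, drive inflammation through the TNF receptors. Lymphotoxin beta, the product of Ltb, joins lymphotoxin alpha in a membrane complex that acts on the lymphotoxin beta receptor and maintains lymphoid tissue. CD40 ligand licenses B cells and dendritic cells, and the ligands CD30L (Tnfsf8), RANKL (Tnfsf11), LIGHT (Tnfsf14) and CD70 give costimulatory or differentiation signals, while Fas ligand (Fasl) and TRAIL (Tnfsf10) can kill target cells. Dec1, encoded by Bhlhe40, is a basic helix-loop-helix factor that is induced in activated T cells.

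With anti-CD28 added to anti-CD3, the ligands split. Lta, Tnfsf11 and Tnfsf14 were higher and Ltb and Fasl lower in both genotypes, and Cd40lg was not called in either. The calls of Lta, Ltb and Tnfsf11 held under every alternative fit, while those of Fasl and Tnfsf14 were lost under some in each genotype. In knockout cells Tnf and Tnfsf8 were also called higher with anti-CD28. In wild-type cells Tnfsf8 differed by 0.54 (limma adjusted p = 0.0709), and it was called with the replicate number as a block (adjusted p = 0.00357). The test of whether the CD28 difference depends on genotype called no ligand. In knockout cells 5 of the 10 ligands rose and 2 fell, against 20.4% of all genes higher and 17.6% lower (38% in all, limma, adjusted p under 0.05). In wild-type cells 3 rose and 2 fell, against 16% higher and 13% lower (29% in all). The median log2 difference of the ligands was 0.44 in knockout and 0.23 in wild-type cells, beside -0.06 and -0.03 over all genes tested. Between genotypes no ligand was called under either stimulus, but with the replicate number as a block Tnf was called lower in knockout under anti-CD3 (-0.84, adjusted p = 0.0246). T cell marker lists also differed between the stimuli. The summed signal of 5 naive T cell markers was 5673 to 6244 in KO_CD3CD28 against 12495 to 15034 in KO_CD3, and 5070 to 6476 in WT_CD3CD28 against 11075 to 13068 in WT_CD3. That of 7 regulatory T cell markers was 8771 to 10967 in KO_CD3CD28 against 3852 to 4913 in KO_CD3, and 8367 to 11938 in WT_CD3CD28 against 5318 to 7908 in WT_CD3. Of the 7, 5 were called higher in knockout and 3 in wild-type cells, and activated T cells express several of them. Foxp3 differed by 0.55 in knockout (adjusted p = 0.0276) and 0.24 in wild-type cells (adjusted p = 0.4). In bulk RNA, fewer cells of a type and less RNA per cell cannot be told apart, and the part of these lists in the ligand differences was not tested.

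Values are log2 signals, so a difference of 1 is a factor of 2, and levels of different probes are not compared with each other. A group was called near background where its mean lay below 7.08, the 90th percentile of 35 genes of other tissues, such as liver and retina. Arrays of one group correlated at 0.970 to 0.995 over the tested genes. Bhlhe40 itself read 5.73 to 6.07 in KO_CD3CD28 and 5.18 to 5.95 in KO_CD3, both near background, against 8.55 to 10.07 in WT_CD3CD28 and at most 8.02 in WT_CD3, with a mean of 7.56. Replicates 1 and 2 of all groups lay on the other side of the first component of the deviations from the group means (39.6% of that variance) from replicates 3 and 4, for which the labels name no batch. As this split was seen in the data, fits to either set alone, or with the set as a term, are descriptions and not separate evidence. Xist, expressed from the inactive X chromosome, was at 10.44 to 11.36 on 4 of 8 knockout and 2 of 8 wild-type arrays, and at 5.09 to 5.80 on the others. Same-numbered arrays of a genotype were alike in Xist under both stimuli, differing by -0.076 to 0.915 in knockout and -0.517 to 0.712 in wild-type cells. The labels do not say whether such arrays share an animal. All 10 measured T cell identity genes were above background in every group. Of other cell types, 8 of 9 B cell markers and 8 to 12 of 12 myeloid and dendritic cell markers were near background in each group.

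**Figure D1:**
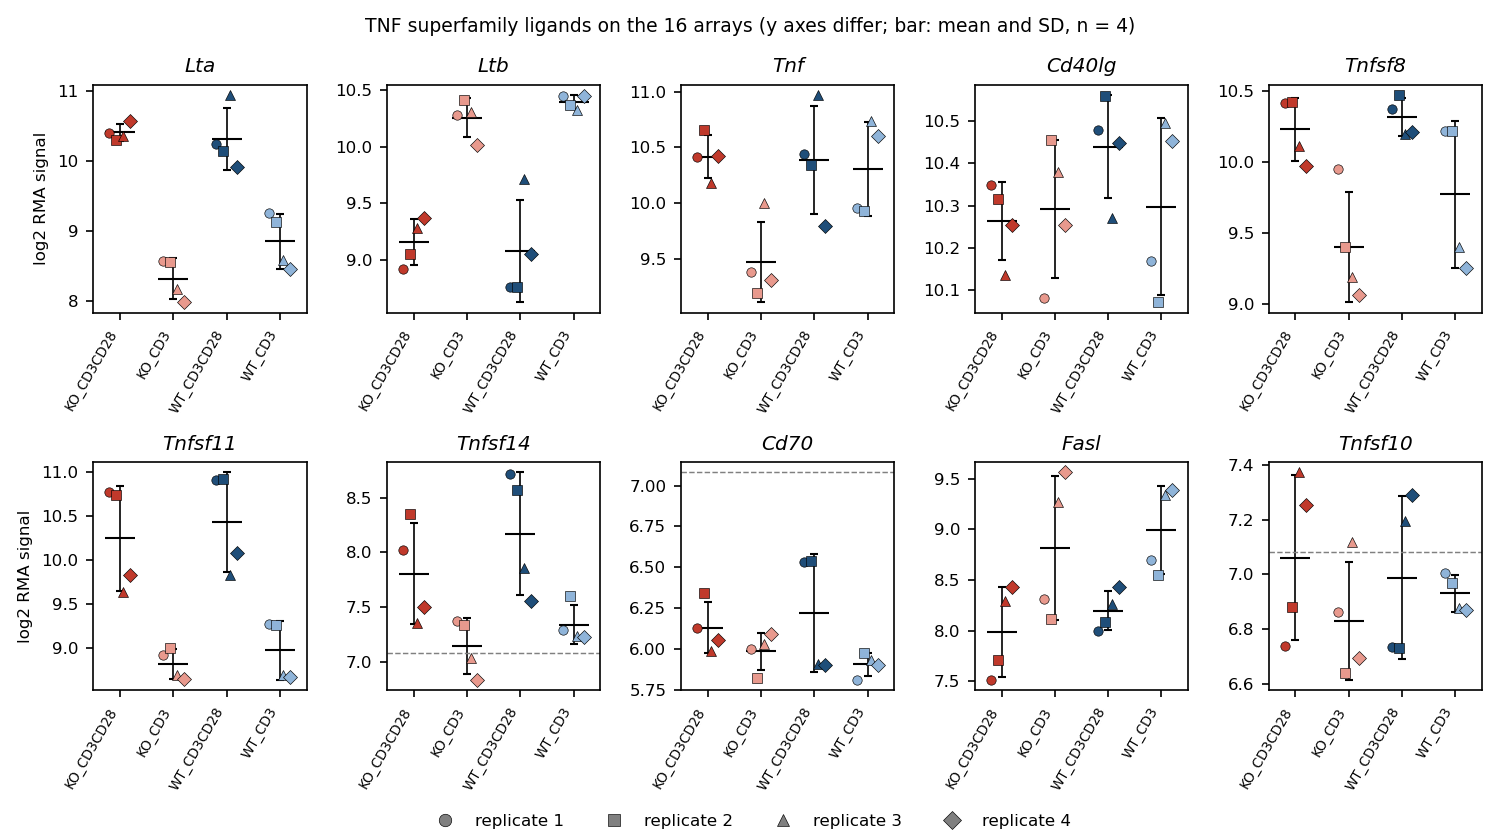
Log2 RMA signal of each ligand on the 16 arrays, by group, with symbols for the replicate number and bars for mean and SD (n = 4); dashed lines mark the background limit of 7.08 where it falls within or above the plotted range, and the y axes differ. Lta and Ltb part by stimulus in opposite directions, Tnf is lowest in KO_CD3, and Cd70 lies below the limit on all 16 arrays.

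Tnf, Lta and Ltb sit side by side on mouse chromosome 17, with Ltb and Lta as the coding neighbours of Tnf on either side. Since they lie together and moved in different directions, their promoters are shown with that of Tnfsf11 on chromosome 14, which rose in both genotypes. The windows are the RefSeq entries for GRCm38.p6, from 250 bases before to 50 after a transcription start, read 5′ to 3′ along the gene. Tnf is at chr17:35201958-35202257 on the minus strand, Lta at chr17:35205302-35205601 on the minus strand, Ltb at chr17:35194257-35194556 on the plus strand and Tnfsf11 at chr14:78307994-78308293 on the minus strand. Capitals mark GGAAA or its complement TTTCC, the core bound by NFAT, the calcium-dependent factor that T cell receptor signals activate.
Tnf: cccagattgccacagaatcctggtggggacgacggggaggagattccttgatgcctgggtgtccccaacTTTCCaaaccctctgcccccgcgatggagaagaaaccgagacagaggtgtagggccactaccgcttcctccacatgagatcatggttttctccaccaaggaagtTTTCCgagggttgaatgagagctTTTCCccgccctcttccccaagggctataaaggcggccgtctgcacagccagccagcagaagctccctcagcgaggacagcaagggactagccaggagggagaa
Lta: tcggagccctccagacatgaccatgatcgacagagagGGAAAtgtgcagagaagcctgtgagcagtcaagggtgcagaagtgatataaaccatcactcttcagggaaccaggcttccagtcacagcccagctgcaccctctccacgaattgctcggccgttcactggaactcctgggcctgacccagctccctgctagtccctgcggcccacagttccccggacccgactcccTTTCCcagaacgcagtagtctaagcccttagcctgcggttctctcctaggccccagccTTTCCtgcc
Ltb: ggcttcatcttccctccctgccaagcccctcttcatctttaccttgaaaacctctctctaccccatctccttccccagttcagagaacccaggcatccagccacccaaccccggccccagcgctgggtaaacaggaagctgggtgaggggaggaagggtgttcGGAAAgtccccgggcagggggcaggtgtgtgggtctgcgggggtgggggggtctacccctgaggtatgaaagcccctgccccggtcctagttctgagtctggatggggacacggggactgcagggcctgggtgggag
Tnfsf11: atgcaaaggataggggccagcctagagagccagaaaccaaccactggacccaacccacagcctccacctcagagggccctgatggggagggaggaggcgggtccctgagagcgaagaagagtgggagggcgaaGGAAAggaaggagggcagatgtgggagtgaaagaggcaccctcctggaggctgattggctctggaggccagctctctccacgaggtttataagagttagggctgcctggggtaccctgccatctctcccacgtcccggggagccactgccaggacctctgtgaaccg
The NFAT core occurred 3 times in the Tnf window, 3 times in Lta, once in Ltb and once in Tnfsf11. It was present in all 8 of the ligands that the promoter table holds, but 61.3% of all 32851 windows contain it. The E-box CACGTG, which Dec1 is known to bind, was in 0 of the 8 windows and in 7.15% of all. The NF-kappaB motif was in 1 of the 8, that of Ltb, where it overlaps the NFAT core shown, and in 8.46% of all. The AP-1 motif TGANTCA was in 1 of the 8, that of Tnfsf14, and in 7.81% of all. Both strands were searched for each motif, and matches are letters in a short window, not evidence of binding.

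Lta read 10.39, 10.29, 10.36 and 10.57 in KO_CD3CD28, against 8.57, 8.56, 8.17 and 7.98 in KO_CD3. In wild-type cells it read 10.24, 10.14, 10.94 and 9.91 in WT_CD3CD28, against 9.25, 9.13, 8.59 and 8.46 in WT_CD3. All arrays with anti-CD28 were above all arrays without it in each genotype. Such separation held for 5 of the 10 ligands in knockout cells (Tnf, Lta, Ltb, Tnfsf8 and Tnfsf11), against 34.9% of all genes, and for 4 in wild-type cells (Lta, Ltb, Fasl and Tnfsf11), against 30.4%. The log2 difference was 2.09 in knockout cells (SE 0.21, 4.24-fold, limma adjusted p = 6.32e-07) and 1.45 in wild-type cells (SE 0.21, 2.74-fold, adjusted p = 4.96e-05). It was positive in all 4 pairs of same-numbered arrays of each genotype. In order of mean level, KO_CD3CD28 (10.40 ± 0.12, SD, n = 4) and WT_CD3CD28 (10.31 ± 0.44) overlapped, and so did WT_CD3 (8.85 ± 0.39) and KO_CD3 (8.32 ± 0.29) below them.

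Ltb, whose product is the membrane anchor of the lymphotoxin heterotrimer, moved the opposite way. It read 8.92, 9.05, 9.28 and 9.37 in KO_CD3CD28, against 10.28, 10.41, 10.31 and 10.01 in KO_CD3. Wild-type cells had 8.76, 8.76, 9.72 and 9.05 in WT_CD3CD28, against 10.44, 10.37, 10.32 and 10.44 in WT_CD3. The groups did not overlap in either genotype. Ltb was 2.14-fold lower with anti-CD28 in knockout cells (log2 difference -1.10, SE 0.17, adjusted p = 5.89e-05) and 2.501-fold lower in wild-type cells (-1.32, SE 0.17, adjusted p = 1.5e-05). T cell identity genes were also lower with anti-CD28: 5 of the 10 tested were lower in knockout and 7 of 10 in wild-type cells. Their summed linear signal was 20551 to 22521 in KO_CD3CD28 against 27436 to 31919 in KO_CD3, and 19038 to 25770 in WT_CD3CD28 against 30360 to 35218 in WT_CD3. The part of this shift in the fall of Ltb was not tested. B cells also express Ltb, and the B cell markers near background on these arrays included Cd79a, Ms4a1 and Pax5, while Cd79b was above background in all groups. Their summed signal was 596 to 645 in KO_CD3CD28 against 682 to 889 in KO_CD3, and 574 to 642 in WT_CD3CD28 against 743 to 823 in WT_CD3, and the part of it in the fall of Ltb was not tested.

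Tnf, the inflammatory cytokine between them on the chromosome, showed a CD28 difference in knockout cells. Tnf read 10.42, 10.65, 10.18 and 10.42 in KO_CD3CD28, against 9.37, 9.19, 10.00 and 9.31 in KO_CD3, with no overlap. In wild-type cells the values were 10.44, 10.35, 10.97 and 9.79 in WT_CD3CD28, against 9.95, 9.93, 10.74 and 10.60 in WT_CD3, which overlapped widely. Tnf was thus 1.93-fold higher with anti-CD28 in knockout cells (log2 difference 0.95, SE 0.23, adjusted p = 0.00401), while in wild-type cells the difference was 0.08 (95% interval -0.41 to 0.58, adjusted p = 0.837). KO_CD3 was the lowest of the 4 group means (9.47 ± 0.36, SD, n = 4), and the other 3 lay between 10.30 and 10.42. Restricted to replicates 3 and 4, the knockout difference was 0.65 with an adjusted p of 0.234, and restricted to replicates 1 and 2, the wild-type difference was 0.45 with an adjusted p of 0.00831. Myeloid cells are another source of Tnf, and of the 12 myeloid and dendritic cell markers none was above background in KO_CD3CD28 and 2 were in KO_CD3, with summed signals of 805 to 906 against 1030 to 1736. In WT_CD3CD28 1 was above background and in WT_CD3 4 were, with summed signals of 796 to 921 against 1141 to 1388. The part of these cells in the level of Tnf was not tested.

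**Figure D2:**
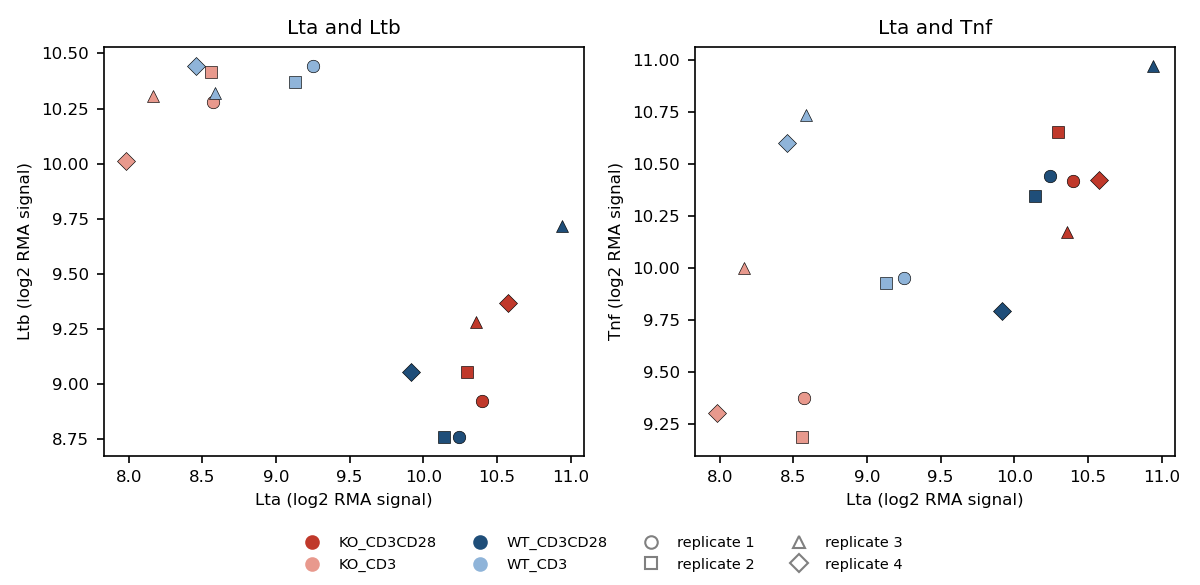
Ltb (left) and Tnf (right) plotted against Lta, in log2 RMA signal, for the 16 arrays, with colours for groups and symbols for replicate numbers. Arrays with anti-CD28 have high Lta and low Ltb, and WT_CD3CD28 replicate 3 has the highest value of its group for Lta, Ltb and Tnf alike (10.94, 9.72 and 10.97).

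In WT_CD3CD28, replicate 3 was the highest array for Lta (10.94), Ltb (9.72) and Tnf (10.97), although Lta and Ltb differ in opposite directions between the stimuli. Without that array the CD28 difference of wild-type cells was 1.24 for Lta, -1.54 for Ltb and -0.11 for Tnf, and the calls of Lta and Ltb did not change.

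The costimulatory ligands were led by Tnfsf11, which encodes RANKL, the cytokine needed for osteoclast formation and lymph node development. It read 10.78, 10.75, 9.64 and 9.83 in KO_CD3CD28, against 8.922, 8.997, 8.690 and 8.652 in KO_CD3. Wild-type cells had 10.91, 10.92, 9.83 and 10.08 in WT_CD3CD28, against 9.27, 9.26, 8.69 and 8.67 in WT_CD3. The groups did not overlap, and replicates 1 and 2 lay above replicates 3 and 4 in all 4 groups. Tnfsf11 was 2.70-fold higher with anti-CD28 in knockout cells (log2 difference 1.43, SE 0.28, adjusted p = 0.000525) and 2.75-fold higher in wild-type cells (1.46, SE 0.28, adjusted p = 0.000594). Stromal cells of lymph nodes also make RANKL, and the summed signal of 6 stromal markers was 890 to 1275 in KO_CD3CD28 against 1681 to 2048 in KO_CD3, and 848 to 1148 in WT_CD3CD28 against 1754 to 2158 in WT_CD3. Among the 6, Cdh5 and Ccl19 were near background in all groups, and Pecam1, which T cells carry too, was lower by -1.51 in knockout (adjusted p = 5.82e-05) and -1.73 in wild-type cells (adjusted p = 2.52e-05). Col1a1, above background in all groups, differed by -0.10 and -0.03 (adjusted p = 0.362 and 0.822). The part of stromal cells in the level of Tnfsf11 was not tested.

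Tnfsf14 encodes LIGHT, which binds the receptors HVEM and the lymphotoxin beta receptor. It read 8.02, 8.35, 7.36 and 7.50 in KO_CD3CD28, against 7.37, 7.34, 7.04 and 6.84 in KO_CD3. Wild-type cells had 8.71, 8.57, 7.86 and 7.55 in WT_CD3CD28, against 7.29, 7.60, 7.24 and 7.23 in WT_CD3. Replicates 1 and 2 were again the higher pair in each group, and the stimuli overlapped slightly in both genotypes. The difference was 0.66 in knockout cells (SE 0.24, 1.58-fold, adjusted p = 0.0391) and 0.83 in wild-type cells (SE 0.24, 1.78-fold, adjusted p = 0.0142), and it was positive in all 4 same-numbered pairs of each genotype. The knockout call was lost without replicate 1 or 2 of KO_CD3CD28 or replicate 3 or 4 of KO_CD3 (adjusted p = 0.104, 0.142, 0.0802 and 0.105), and the wild-type call without replicate 1 or 2 of WT_CD3CD28 (0.062 and 0.0564). In KO_CD3, replicates 3 and 4 were below the background limit.

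Tnfsf8 encodes the ligand of CD30. It read 10.42, 10.42, 10.12 and 9.97 in KO_CD3CD28, against 9.95, 9.40, 9.19 and 9.07 in KO_CD3. Wild-type cells had 10.38, 10.47, 10.20 and 10.21 in WT_CD3CD28, against 10.22, 10.22, 9.41 and 9.25 in WT_CD3. The knockout groups did not overlap, while replicates 1 and 2 of WT_CD3 lay slightly above replicates 3 and 4 of WT_CD3CD28. The difference was 0.83 in knockout cells (SE 0.22, 1.78-fold, adjusted p = 0.00582) and 0.54 in wild-type cells (95% interval 0.09 to 1.00, adjusted p = 0.0709). With the replicate number as a block the wild-type difference passed (adjusted p = 0.00357). It was 0.88 in replicates 3 and 4 alone (adjusted p = 0.00111) and 0.21 in replicates 1 and 2 alone (adjusted p = 0.317).

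Cd40lg, the signal of helper T cells to B cells and dendritic cells, was not called in any comparison. Its range was 10.14 to 10.35 in KO_CD3CD28, 10.08 to 10.46 in KO_CD3, 10.27 to 10.56 in WT_CD3CD28 and 10.07 to 10.50 in WT_CD3. The CD28 difference was -0.03 in knockout cells (95% interval -0.26 to 0.20) and 0.14 in wild-type cells (-0.09 to 0.37), and these bounds do not show equality. In replicates 1 and 2 alone the wild-type difference was 0.40 and was called (adjusted p = 0.0257). Cd70, the ligand of CD27, read 5.99 to 6.35, 5.82 to 6.09, 5.90 to 6.54 and 5.81 to 5.97 in the same groups, below the background limit on all arrays, so no difference is read as a change. Its highest values were 6.53 and 6.54, in replicates 1 and 2 of WT_CD3CD28.

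Of the death ligands, Fasl was called lower with anti-CD28 in both genotypes and Tnfsf10 in neither. Fasl read 7.51, 7.71, 8.29 and 8.43 in KO_CD3CD28, against 8.31, 8.11, 9.27 and 9.56 in KO_CD3. Wild-type cells had 7.999, 8.09, 8.27 and 8.43 in WT_CD3CD28, against 8.70, 8.55, 9.34 and 9.39 in WT_CD3. Replicates 3 and 4 were the higher pair in every group, the reverse of Tnfsf11 and Tnfsf14. Within same-numbered arrays Fasl was lower with anti-CD28 in all 8 pairs, with log2 differences of -1.13 to -0.41 in knockout and -1.08 to -0.46 in wild-type cells. The groups overlapped in knockout cells only. limma gave -0.83 in knockout cells (SE 0.29, adjusted p = 0.0331) and -0.80 in wild-type cells (SE 0.29, adjusted p = 0.04995), close to the threshold. Both calls were lost when each array was centred on its median (-0.70, adjusted p = 0.0803, in knockout and -0.71, adjusted p = 0.0876, in wild-type cells). The knockout call was also lost with 2 groups only (0.0727). The wild-type call was also lost with quantile normalization (0.066), no filter (0.0557), a trended robust variance (0.0586), the level of Xist as a covariate (0.0614) and the mean of all probes, where it lay at the threshold. With the replicate block the adjusted p was 0.000171 and 0.000327. Without single arrays the adjusted p went up to 0.118 in knockout cells, lost without replicate 1 or 2 of KO_CD3CD28 or replicate 3 or 4 of KO_CD3, and up to 0.149 in wild-type cells, lost without replicate 1, 2 or 3 of WT_CD3CD28, replicate 1, 3 or 4 of WT_CD3, or replicate 2 or 3 of KO_CD3CD28. Natural killer cells carry Fas ligand too, and of the 10 markers of CD8 and NK cells Ncr1, Klrb1c, Gzma, Klrk1 and Klre1 were near background in all groups. Klrd1 differed by -3.71 in knockout and -3.43 in wild-type cells and was near background with anti-CD28, so the size of its fall is not fully measured. The other 4 tested markers were higher with anti-CD28 in both genotypes. Cd8b1 rose by 0.76 and 0.73 and Cd8a by 0.40 and 0.73, in knockout and wild-type cells in that order. Nkg7 rose by 1.25 and 0.62 and Eomes by 1.06 and 0.99. Nkg7 and Eomes were near background in KO_CD3 and Cd8a in WT_CD3, so the size of those rises is not fully measured. The summed signal of the list was 1416 to 1915 in KO_CD3CD28 against 1716 to 2879 in KO_CD3, and 1526 to 2111 in WT_CD3CD28 against 1549 to 1886 in WT_CD3, and its part in the fall of Fasl was not tested. Tnfsf10, which encodes TRAIL, was at 6.64 to 7.37 over all arrays with every group mean near background, and its CD28 difference was 0.23 in knockout (95% interval -0.09 to 0.56) and 0.06 in wild-type cells (-0.27 to 0.38).

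**Figure D3:**
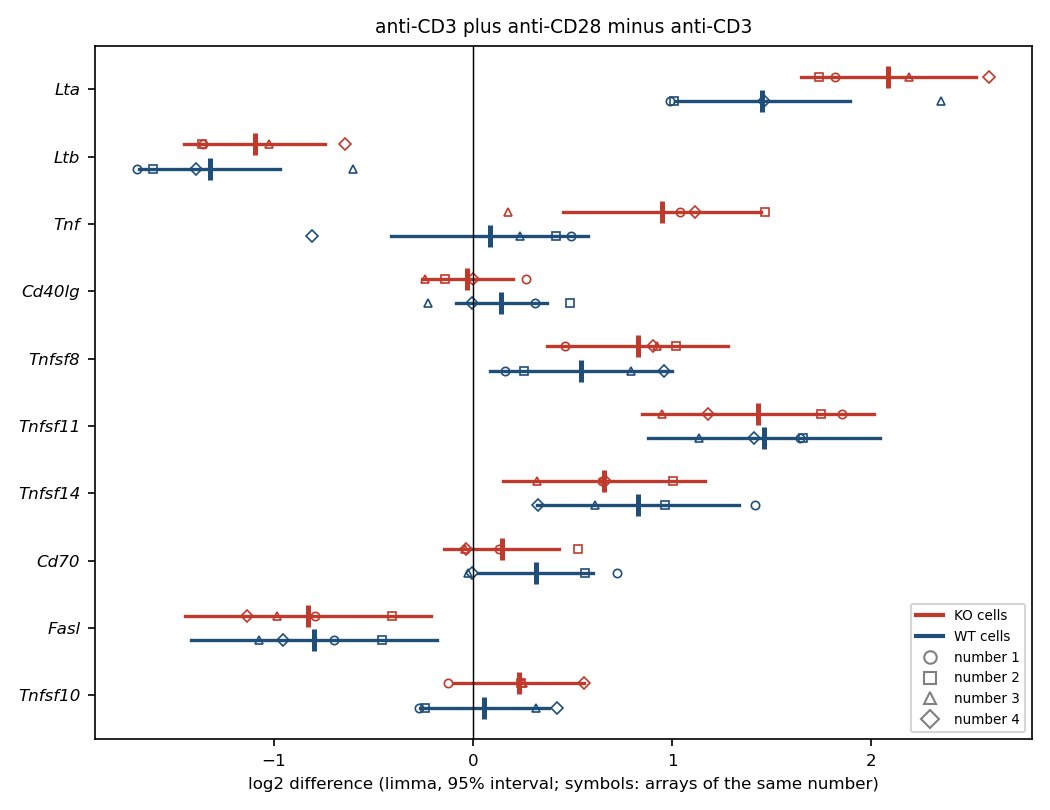
Log2 difference between anti-CD3 plus anti-CD28 and anti-CD3 for each ligand, in knockout (red, above) and wild-type cells (blue, below). Thick ticks and lines give limma's estimate and 95% interval, and open symbols the difference between arrays of the same replicate number. Lta and Tnfsf11 lie to the right of 0 and Ltb and Fasl to the left with all symbols, and Tnf differs from 0 in the knockout interval only.

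The genotype comparison asked what the loss of Dec1 does to the ligands under each stimulus. Under anti-CD3 alone, 0 of the 10 were called, against 1.03% of all genes, and their median log2 difference was -0.17, beside 0.03 over all genes tested. None of the 10 separated KO_CD3 from WT_CD3 on all arrays, against 14.7% of all genes. At an unadjusted p under 0.05 there were 2, Tnf and Lta, beside 24.3% of all genes. Tnf averaged 9.47 ± 0.36 in KO_CD3 and 10.30 ± 0.42 in WT_CD3 (SD, n = 4 each), a difference of -0.84 (SE 0.23, 95% interval -1.33 to -0.34, adjusted p = 0.0789). It was lower in knockout in all 4 same-numbered pairs, with differences of -0.58, -0.74, -0.74 and -1.30. Replicate 3 of KO_CD3, at 10.00, nevertheless lay above replicates 1 and 2 of WT_CD3. In Xist the same pairs differed by -5.61, 5.31, -0.25 and 6.01, so they are not matched by sex. A fit with the level of Xist as a covariate called 0 ligands, as did the fit without it, and 49 genes in place of 169. As both fits called 0 ligands, these counts cannot show whether sex bears on Tnf. With the replicate number as a block the difference of Tnf passed (adjusted p = 0.0246), with 1 ligand and 1954 genes called in place of 0 and 169. Regulatory T cell markers, 7 of 7 above background in all groups, had a summed signal of 3852 to 4913 in KO_CD3 against 5318 to 7908 in WT_CD3, with a median log2 difference of -0.56 and 0 of 7 called. Activated T cells express several of them, and their part in the level of Tnf was not tested. Tnf also passed without replicate 3 of KO_CD3 (-1.01, adjusted p = 0.0364). Lta differed by -0.54 (SE 0.21, 95% interval -0.97 to -0.10, adjusted p = 0.145), and was lower in knockout in all 4 pairs. In replicates 1 and 2 alone, Tnf (-0.66), Lta (-0.62) and Fasl (-0.41) were called lower in knockout with adjusted p = 0.00775, 0.00558 and 0.0498. In replicates 3 and 4 alone no gene was called, Bhlhe40 included. Both sets were parted on the basis of the data, so these calls are descriptions.

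The other ligands under anti-CD3 had intervals on both sides of 0. The widest was that of Fasl (-0.18, -0.80 to 0.44) and the narrowest that of Cd40lg (-0.0047, -0.23 to 0.22). Tnfsf8 differed by -0.37 (-0.83 to 0.08) and was lower in knockout in all 4 pairs, Tnfsf14 by -0.19 (-0.70 to 0.31), Tnfsf11 by -0.16 (-0.74 to 0.43) and Ltb by -0.14 (-0.50 to 0.21).

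Under anti-CD3 plus anti-CD28, 0 of the 10 ligands were called and 0 had an unadjusted p under 0.05, against 0.00609% and 3.32% of all genes, and the 1 gene called was Bhlhe40. None of the 10 separated KO_CD3CD28 from WT_CD3CD28 on all arrays, against 2.75% of all genes. The median of the ligands was -0.09, beside 0.02 over all genes. Tnf averaged 10.42 ± 0.19 in KO_CD3CD28 and 10.39 ± 0.48 in WT_CD3CD28 (difference 0.03, 95% interval -0.47 to 0.52). Lta differed by 0.10 (-0.34 to 0.53) and Ltb by 0.08 (-0.27 to 0.44). Tnfsf14 was lower in knockout in all 4 pairs, with differences of -0.69 to -0.05 (mean -0.37, interval -0.87 to 0.14), and so were Cd40lg (-0.18, -0.40 to 0.05) and Tnfsf11 (-0.19, -0.77 to 0.40). Tnfsf11 was therefore lower in knockout in all 8 same-numbered pairs over both stimuli, with differences of -0.346 to -0.003, without passing the test. Most of these pairs set arrays of unlike sex against each other.

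**Figure D4:**
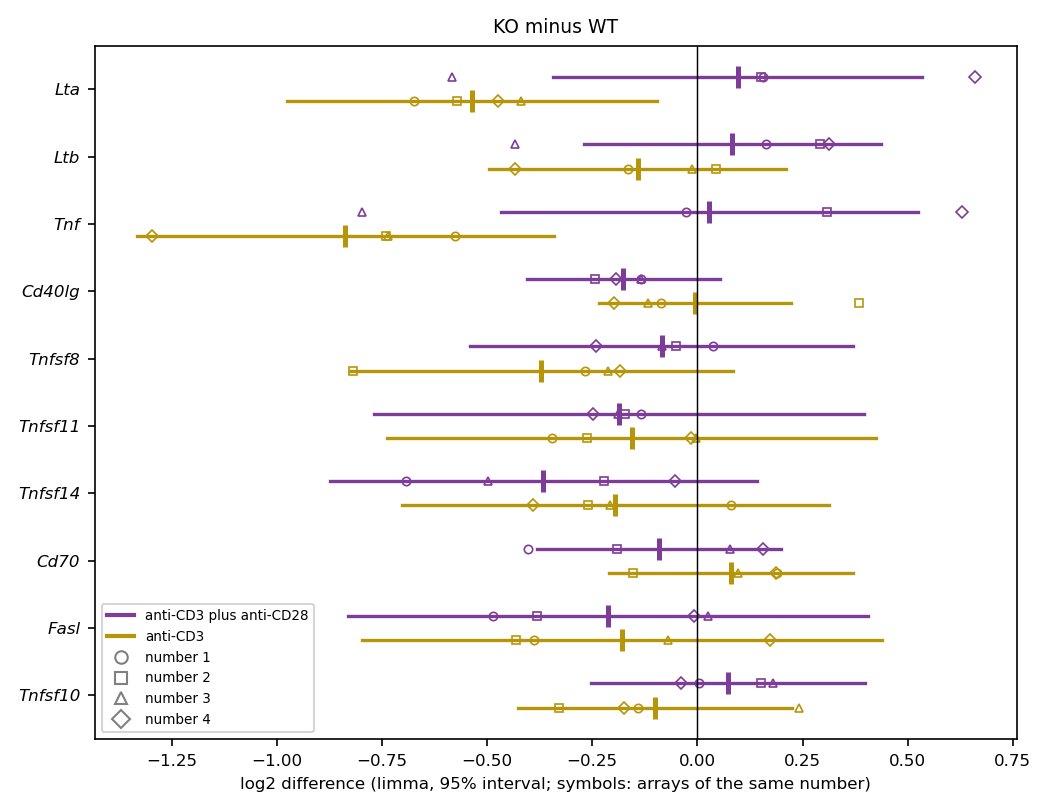
Log2 difference between knockout and wild-type cells for each ligand under anti-CD3 plus anti-CD28 (purple, above) and anti-CD3 (yellow, below), with limma's 95% interval and the differences of same-numbered arrays as open symbols. Tnf and Lta under anti-CD3 are the intervals that stay below 0, at -0.84 and -0.54, and neither passed after adjustment.

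Whether the CD28 difference depends on genotype was tested as an interaction, knockout minus wild type. No ligand and no gene was called (0% of those tested), and at an unadjusted p under 0.05 there were 867 genes (5.28%), among them Tnf and Lta. The CD28 difference of Tnf was larger in knockout by 0.87 (SE 0.33, 95% interval 0.16 to 1.57, adjusted p = 0.905) and that of Lta by 0.63 (SE 0.29, 0.01 to 1.25, adjusted p = 0.905). The call of Tnf in knockout but not in wild-type cells is therefore not shown to be a difference between genotypes. For the other ligands the interaction was between -0.17 and 0.29, with adjusted p from 0.910 to 0.992. In replicates 1 and 2 alone, a set parted on the basis of the data, the interaction of Lta was 0.78 (adjusted p = 0.0399, 80 genes called). The genotype and interaction comparisons share their arrays with the CD28 comparisons, so these values are not separate evidence.

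Same-numbered arrays carried a pattern of their own. Between replicates 1 and 2 and replicates 3 and 4, the mean of Tnfsf11 was higher in 1 and 2 by 1.03 in KO_CD3CD28, 0.29 in KO_CD3, 0.96 in WT_CD3CD28 and 0.58 in WT_CD3. Tnfsf14 was higher by 0.75, 0.42, 0.93 and 0.21 in the same order of groups, and Tnfsf8 by 0.38, 0.55, 0.22 and 0.89. Fasl ran the other way in every group, by -0.75, -1.21, -0.31 and -0.75. These 4 ligands thus kept 1 direction in all groups, while Tnf, Lta, Ltb, Cd40lg, Tnfsf10 and Cd70 changed sign between groups. Under anti-CD3, replicates 1 and 2 had higher Lta (by 0.49 in KO_CD3 and 0.67 in WT_CD3) and lower Tnf (differences of -0.37 and -0.73). The numbers were parted on the basis of the data, so no test between the sets is given, and fits to either set alone are descriptions.

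Of the other ligands of the family, 5 of 8 listed genes were tested and 2 rose in each genotype. Tnfsf4 encodes OX40 ligand and Tnfsf9 encodes 4-1BB ligand, the coding neighbour of Cd70 on chromosome 17. Tnfsf9 was higher with anti-CD28 by 1.37 in knockout (SE 0.21, adjusted p = 6.9e-05) and 1.37 in wild-type cells (SE 0.21, adjusted p = 9.99e-05), with 2 of the 4 groups near background. Tnfsf4 was higher by 1.42 in knockout (SE 0.29, adjusted p = 0.000994) and 1.00 in wild-type cells (SE 0.29, adjusted p = 0.0154). Tnfsf13b, Tnfsf15 and Eda were near background in all groups.

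Of the 13 receptors of the ligands, 1 rose and 4 fell in knockout and 2 rose and 4 fell in wild-type cells, with a median of -0.16 and -0.09. Over all genes 38% and 29% were called, so the count for knockout cells is at the level of all genes. Cd27, the receptor of CD70, was lower with anti-CD28 by -1.27 in knockout (SE 0.15, adjusted p = 4.17e-06) and -1.62 in wild-type cells (SE 0.15, adjusted p = 5.71e-07). Tnfrsf14, which encodes the LIGHT receptor HVEM, was lower by -0.53 (adjusted p = 0.000193) and -0.65 (adjusted p = 4.44e-05), in the opposite direction to its ligand Tnfsf14. Tnfrsf10b, the TRAIL receptor, was higher by 1.02 (adjusted p = 0.00057) and 0.86 (adjusted p = 0.00284). The TNF receptor Tnfrsf1a was lower by -0.35 and -0.39 (adjusted p = 0.048 and 0.0377) and the decoy receptor Tnfrsf23 by -0.51 and -0.42 (adjusted p = 0.00719 and 0.028). Tnfrsf8, the receptor CD30, was called in wild-type cells (0.68, adjusted p = 0.00311) but was near background in all groups. Fas itself differed by -0.26 in knockout and -0.24 in wild-type cells (adjusted p = 0.217 and 0.297). No receptor was called between genotypes or in the interaction, which does not show equal levels.

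**Figure D5:**
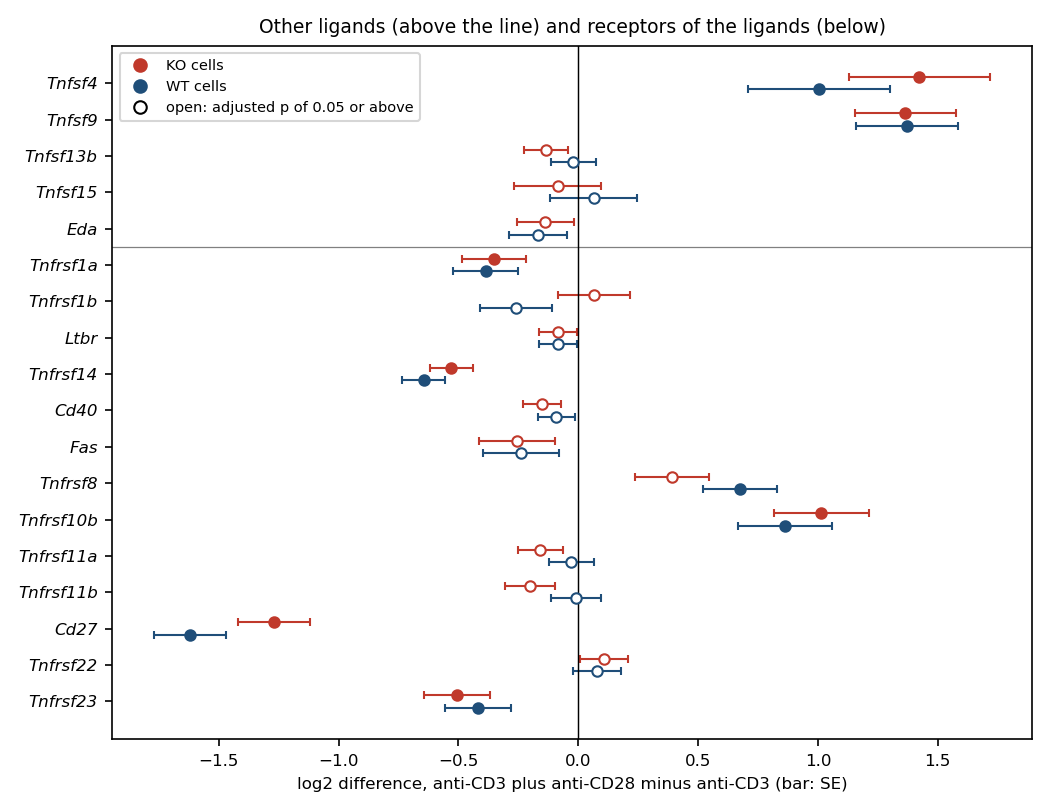
Log2 difference between anti-CD3 plus anti-CD28 and anti-CD3, with SE, for the other ligands of the family (above the line) and the receptors of the 10 ligands (below), in knockout (red) and wild-type cells (blue); open circles did not pass an adjusted p under 0.05. Tnfsf4, Tnfsf9 and Tnfrsf10b lie to the right, and Cd27 lies furthest to the left, at -1.27 and -1.62.

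Below the receptors, 2 of 16 adaptor and signalling genes rose and 5 fell with anti-CD28 in knockout cells, and 1 rose and 4 fell in wild-type cells, counts near the 38% and 29% of all genes called. The adaptor Traf1 was lower by -0.56 and -0.73 (adjusted p = 0.00663 and 0.00126), the non-canonical NF-kappaB kinase Map3k14 by -0.47 and -0.56 (adjusted p = 0.00479 and 0.00181), and Cflar, the inhibitor of caspase 8 at death receptors, by -0.63 and -0.35 (adjusted p = 1.76e-05 and 0.00463), in knockout and wild-type cells in that order. Traf6 was higher by 0.52 in both (adjusted p = 0.000681 and 0.000952). Between genotypes none of the 16 was called, and under anti-CD3 Tradd (-0.33), Cflar (0.28) and Traf1 (-0.35) had the smallest p (adjusted p = 0.0956, 0.0973 and 0.171).

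Of 11 genes for proteins that bind AU-rich or stem-loop elements of cytokine messages, several of which limit the life of the Tnf message, 2 rose and 4 fell in each genotype, beside 38% and 29% of all genes called in knockout and wild-type cells. Zfp36, which encodes the decay factor tristetraprolin, was lower by -0.70 in knockout (SE 0.21, adjusted p = 0.0128) and -0.99 in wild-type cells (SE 0.21, adjusted p = 0.0014). Its relatives Zfp36l1 (-0.53 and -0.98) and Zfp36l2 (-0.56 and -0.56) were lower too, with adjusted p of 0.0366 and 0.00078 for Zfp36l1 and of 0.000259 and 0.000333 for Zfp36l2. Zc3h12d, of the Regnase family, was lower by -0.67 and -0.93 (adjusted p = 4.55e-05 and 2.57e-06). The stabilising factor Elavl1 was higher by 0.64 and 0.45 (adjusted p = 8.83e-05 and 0.00284). None of the 11 was called between genotypes, where Zc3h12d (-0.33), Khsrp (-0.38) and Elavl1 (-0.24) had the smallest p under anti-CD3 (adjusted p = 0.0904, 0.11 and 0.172). Of 7 genes that shed or carry the ligands, Rhbdf2 was lower in both genotypes but near background in all groups, and the sheddase Adam10 differed by 0.30 in knockout and 0.20 in wild-type cells (adjusted p = 0.0968 and 0.324).

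The genes whose values followed each ligand most closely over the 16 arrays are given with Pearson's r, as a description, since the arrays share stimulus and replicate number. Tnfsf11 was followed by Tspan3 (0.985) and Hk2 (0.982), Ltb by Evl (0.981) and Adgre5 (0.980), and Lta by Cish (0.980) and Lif (0.964). Fasl was followed by Cept1 (0.967) and Stap1 (0.954), Tnfsf14 by Pomt2 (0.957) and Htra2 (0.956), and Tnfsf8 by Cdk6 (0.944) and Pvt1 (0.926). For Tnf the closest were Lrmp (0.941) and Vps53 (0.924), for Cd70 Kit (0.909) and Adm (0.903), and for Tnfsf10 D630039A03Rik (0.878) and Cog5 (0.874). Cd40lg, which varied least, had Harbi1 (0.775) and Tnfrsf22 (0.745).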

How the data were processed

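Gene expression was measured on 16 arrays of biotin-labelled total RNA, 4 per group. The deposited values are log2 signals that the authors made with RMA, per the submitters' processing notes; RMA in general corrects background, equalises the arrays' distributions and summarises the probes of a set. Its version is not stated. The table holds 35556 probes with values from 1.84 to 13.99, and the number of arrays limits the precision. Genes came from the supplied probe table: 21789 probes have 1 symbol and 1621 several, 21698 matched the GRCm38.p6 gene table by gene ID, and 12146 probes are not listed. The sources used here do not name the build behind the probes.

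Probes had to lie above the 25th percentile of the array on 4 or more arrays, and the one with the highest mean represented its gene. limma 3.58.1 (R 4.3.3) fitted a mean per group over all arrays (12 residual and 4.92 prior degrees of freedom) for 5 comparisons, with Benjamini-Hochberg adjustment over 16427 genes and a threshold of 0.05, and was tested on simulated data. Named genes were the 10 ligands, called receptors and other ligands, the 3 smallest p per remaining list, and the 2 closest genes by correlation. Of the 36 genes of other tissues listed, 35 were measured. Members and lists were chosen with earlier results of these data known.

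Same-numbered arrays deviated together from their group means: correlations were 0.22 to 0.51 and 0.16 to 0.37 for the CD28 comparison in knockout and wild type, and 0.18 to 0.45 and 0.20 to 0.59 between genotypes under anti-CD3 and under both antibodies. All 16 were above 0.1, so the replicate number was also fitted as a block. Arrays of a number were alike in Xist between stimuli but mostly not between genotypes. Alternatives covered scaling, the filter, probe choice, variance model, array weights, replicate sets, Xist level, 2 groups alone and each array left out. Python 3.11.15 made the summaries and figures.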

Additional observations from a re-analysis of the deposited data

How the results depend on the processing

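Of 1435 ligand values recomputed under the alternatives, 1385 kept their side of the threshold, 27 were no longer called and 23 became called. None of those called changed direction, while some that were not called changed sign, such as the wild-type CD28 difference of Tnf (-0.29 with replicates 3 and 4 only). The CD28 differences of Lta, Ltb and Tnfsf11 were called under every alternative in both genotypes. The number of ligands called for CD28 was 7 in knockout cells (5 to 7 with 1 array left out) and 5 in wild-type cells (3 to 6, and 8 with replicates 1 and 2 only), and that of genes 6245 (5171 to 6541) and 4770 (3947 to 5053). With replicates 3 and 4 only, 2896 genes were called in knockout and 2650 in wild-type cells. For Dec1 loss under anti-CD3 the ligands called were 0 (0 to 1 with 1 array left out), 1 each with array weights, the replicate block or the replicate set as a term, and 3 with replicates 1 and 2 only. Its 169 genes became 7 without replicate 3 of WT_CD3, 452 without replicate 3 of KO_CD3, 261 with each array centred on its median, 597 with array weights, 1954 with the replicate block, 1254 with the replicate set as a term, 49 with the level of Xist as a covariate, 1388 with replicates 1 and 2 only, 0 with replicates 3 and 4 only and 5 with 2 groups only. With replicates 1 and 2 only, Dec1 loss under anti-CD3 plus anti-CD28 gave 2 genes in place of 1, and the interaction 1 ligand and 80 genes in place of 0; both kept their counts with any array left out. Why these counts moved was not tested. Beyond the values given with the results, the replicate block changed no call of a ligand. With each array centred on its median, the median CD28 difference over all genes was 0.07 in knockout and 0.06 in wild-type cells, in place of -0.06 and -0.03, and the share of CD28 calls that were higher was 75% and 69.3%, in place of 53.8% and 55.1%; for Dec1 loss under anti-CD3 it was 4.98% in place of 27.2%. The wild-type difference of Cd70 was called with array weights (adjusted p = 0.00628) and with replicates 1 and 2 only (0.64, adjusted p = 0.00108). It was also called without replicate 3 or 4 of WT_CD3CD28 (adjusted p = 0.0303 and 0.0252). The knockout difference was called with replicates 1 and 2 only (0.33, adjusted p = 0.035). Cd70 was near background in all groups, and a stricter filter left it out. Signal near background limits Cd70 and Tnfsf10, and 4 arrays per group limit the genotype comparisons.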
